A study of Mus musculus with 12 samples.

Results

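The genes described here are 10 nuclear genes whose products copy and transcribe mitochondrial DNA. They were chosen by name and function, not by any measured value, though earlier results of these data were known. They are 10 of 21938 protein-coding genes annotated on the chromosomes of the peak lists. LSD1, a histone demethylase, was profiled by ChIP-seq in the liver of wild-type C57BL/6 mice. H3K4me2, the dimethyl mark at lysine 4 of histone H3, was profiled in livers from control mice and from LSD1-LKO mice of the same strain. Per the study's methods, both H3K4me2 groups were LSD1 fl/fl mice given an AAV8 vector with the TBG promoter, which is active in hepatocytes, and the vector carried GFP in controls and Cre in LSD1-LKO. Each group had 2 ChIP libraries and 2 control libraries. The deletion was driven in hepatocytes, so the other cells of the LSD1-LKO liver kept their floxed alleles. The methods describe LSD1-LKO and control mice in general as injected when young adults and then put on a high-fat diet until tissue was taken, without naming the ChIP-seq mice, and they give no age or diet for the wild-type mice used for LSD1.

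Mitochondrial DNA is copied by a small replisome encoded in the nucleus. POLG is the catalytic subunit of the DNA polymerase, POLG2 its accessory subunit, Twinkle (Twnk) the helicase and SSBP1 the single-stranded DNA binding protein, and MGME1 is an exonuclease that trims DNA ends. Transcription needs the RNA polymerase POLRMT, the DNA-packaging and initiation factor TFAM, the initiation factor TFB2M and the elongation factor TEFM. TFB1M methylates the small mitochondrial ribosomal RNA. H3K4me2 usually flanks active promoters, and LSD1 can remove it.

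The lists of peaks are the measurement. Each entry sets a peak of 1 library (first-listed) beside its partner in the second library (second-listed), and in all 3 lists the shared stretch made up 50% or more of the first-listed interval. A region called in a single library is therefore not listed, and "no listed peak" means no more than that. The lists held 14584 LSD1 peaks, 43891 control H3K4me2 peaks and 50675 LSD1-LKO H3K4me2 peaks. They hold no reads, so sequencing depth is unknown and peak width cannot be set against it. Of 5 hepatocyte marker genes, 4 had an H3K4me2 promoter peak in the control list and 5 in the LSD1-LKO list, whereas none of 3 leukocyte or 3 Kupffer cell marker genes had one in either list. Endothelial markers had a promoter peak at 1 of 3 genes in control and 2 of 3 in LSD1-LKO, and stellate markers at 0 of 2 and 1 of 2. The lists hold no measurement of LSD1 itself in LSD1-LKO liver, so the deletion could not be checked here.

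The sequences that locate the peaks are given first, read from GRCm38.p6 5′ to 3′ on the strand of the named gene. At Polg and Polg2, and upstream of Tfb2m, the study designed histone ChIP-qPCR primers, and each pair matched mm10 at 1 place. Their names do not say which histone mark they served. The Polg primers are printed without the bases between them. They lie in an LSD1 peak with no H3K4me2 peak over either. The capitals mark primer sites in the first 4 lines.
Polg upstream primer, chr7:79466437-79466455, minus strand: CCGAAGTCAGACGCCTTAT
Polg exonic primer as on the gene strand, chr7:79466337-79466356, minus strand: CTGGTCTATCTTTTCCGTGG
Polg2 amplicon, chr11:106780097-106780210, minus strand: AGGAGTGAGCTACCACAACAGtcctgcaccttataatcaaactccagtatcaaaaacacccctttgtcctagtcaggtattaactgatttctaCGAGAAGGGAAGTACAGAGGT
Tfb2m amplicon, chr1:179546901-179546995, minus strand: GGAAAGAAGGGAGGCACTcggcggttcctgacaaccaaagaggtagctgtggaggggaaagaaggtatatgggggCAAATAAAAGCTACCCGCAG
Each of the remaining stretches lies at or just upstream of a start site that the results turn on. In the stretch that runs from the Cnst side into the first bases of Tfb2m, the capitals mark the NRF1 letters CGCATGCG, which lie just inside Tfb2m, and all 123 bases lie under the LSD1 peak.
Tfb2m start region, chr1:179546247-179546369, minus strand: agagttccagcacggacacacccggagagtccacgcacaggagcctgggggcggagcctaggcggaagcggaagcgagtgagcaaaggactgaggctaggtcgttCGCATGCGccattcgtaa
Upstream of Tfb1m, the capitals mark the 153 bases under the first-listed LSD1 peak, which reaches the gene from the upstream side.
Tfb1m upstream, chr17:3557782-3558005, minus strand: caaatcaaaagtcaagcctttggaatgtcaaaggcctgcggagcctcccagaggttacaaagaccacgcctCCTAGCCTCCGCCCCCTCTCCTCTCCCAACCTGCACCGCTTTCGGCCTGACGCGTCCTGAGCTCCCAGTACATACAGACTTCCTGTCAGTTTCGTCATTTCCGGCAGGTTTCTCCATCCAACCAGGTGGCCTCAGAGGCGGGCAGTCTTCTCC
Upstream of Mgme1, the capitals mark CpG dinucleotides, of which the 120 bases under its LSD1 peak hold 14.
Mgme1 upstream, chr2:144270573-144270692, plus strand: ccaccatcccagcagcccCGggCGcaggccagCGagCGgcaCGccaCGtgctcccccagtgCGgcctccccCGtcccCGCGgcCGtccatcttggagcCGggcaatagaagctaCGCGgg
In the last 4 lines, the capitals mark the GABP letters CCGGAAGT, which run on the opposite strand at Twnk.
Polg, chr7:79466293-79466322, minus strand: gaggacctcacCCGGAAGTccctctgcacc
Tfam, chr10:71238073-71238102, minus strand: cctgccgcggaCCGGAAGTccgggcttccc
Tefm, chr11:80142144-80142173, minus strand: agcacacgaaaCCGGAAGTtgaggaggaac
Twnk second start, chr19:45006443-45006557, plus strand: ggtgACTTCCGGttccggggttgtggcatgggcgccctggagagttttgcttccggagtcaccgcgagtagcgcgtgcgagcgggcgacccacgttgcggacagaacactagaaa

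LSD1 peaks lay at the promoters of 6 of the 10 genes, namely Polg, Ssbp1, Mgme1, Tfam, Tfb1m and Tfb2m. Promoters here are the windows of 1 kb upstream and downstream of every annotated transcription start site (TSS). Over all protein-coding genes the share with an LSD1 promoter peak was 24.6%, and over the 13777 genes with an H3K4me2 promoter peak in either list it was 38.6%. All 10 genes had an H3K4me2 promoter peak in the control list and all 10 in the LSD1-LKO list, against 59.6% and 59.8% of protein-coding genes. The 6 genes with a peak in all 3 lists shared that pattern with 23.5% of protein-coding genes. The other 4, Polg2, Twnk, Polrmt and Tefm, had H3K4me2 in both lists without LSD1, as did 33.1%.

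Among the replication genes, the exonuclease gene Mgme1 had the LSD1 peak of highest rank, at percentile 99.4 of its list. This peak (chr2:144270319-144271229) was enriched 5.83-fold in the first-listed library and 8.14-fold in the second. It covered the start of Mgme1 and that of Snx5, a sorting nexin gene transcribed the other way from 6 bp away, so it cannot be given to one gene. The polymerase gene Polg carried a 1211-bp LSD1 peak (chr7:79465848-79467058) at percentile 96.6, with 6.64-fold and 4.61-fold enrichment. It held 515 bases of the first Polg exon, all of it noncoding, and 696 bases upstream of the 5′ end annotated by GENCODE. There RefSeq places a tRNA gene, n-TRtcg5, at chr7:79466419-79466491. The RefSeq Polg gene itself reaches chr7:79467911, so these 696 bases lie inside it. Ssbp1 had a weaker peak (chr6:40471371-40471789, percentile 70.9) lying wholly within noncoding exon sequence, with 4.45-fold enrichment in one library and 2.69-fold in the other.

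Among the genes for transcription, the LSD1 peak at Tfb2m (chr1:179546121-179546823) had percentile 85.8 and spanned the start of Tfb2m and that of Cnst, 103 bp apart and divergent. Its enrichment was 3.01-fold and 5.34-fold. The rRNA methylase gene Tfb1m had a peak (chr17:3557497-3557934, percentile 78.7) over its first exon, with 4.98-fold and 2.69-fold enrichment, and the lincRNA 1700102H20Rik starts 43 bp from a Tfb1m start under the same peak. Tfam was different in position. Its LSD1 peak (chr10:71234187-71234506, percentile 78.5, 3.34-fold and 4.46-fold) was intronic, its center 3934 bp inside the gene, and counted as a promoter peak only because an internal transcript start lay 974 bp from it. Without internal starts, 5 of the 10 genes had an LSD1 promoter peak. The share of all protein-coding genes under that rule was not given, so this count has no background beside it. With a p-value at or below 1e-05 required in both libraries, only the peaks of Polg and Mgme1 remained, 2 of 10 genes against 5.68% of protein-coding genes.

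**Figure D1:**
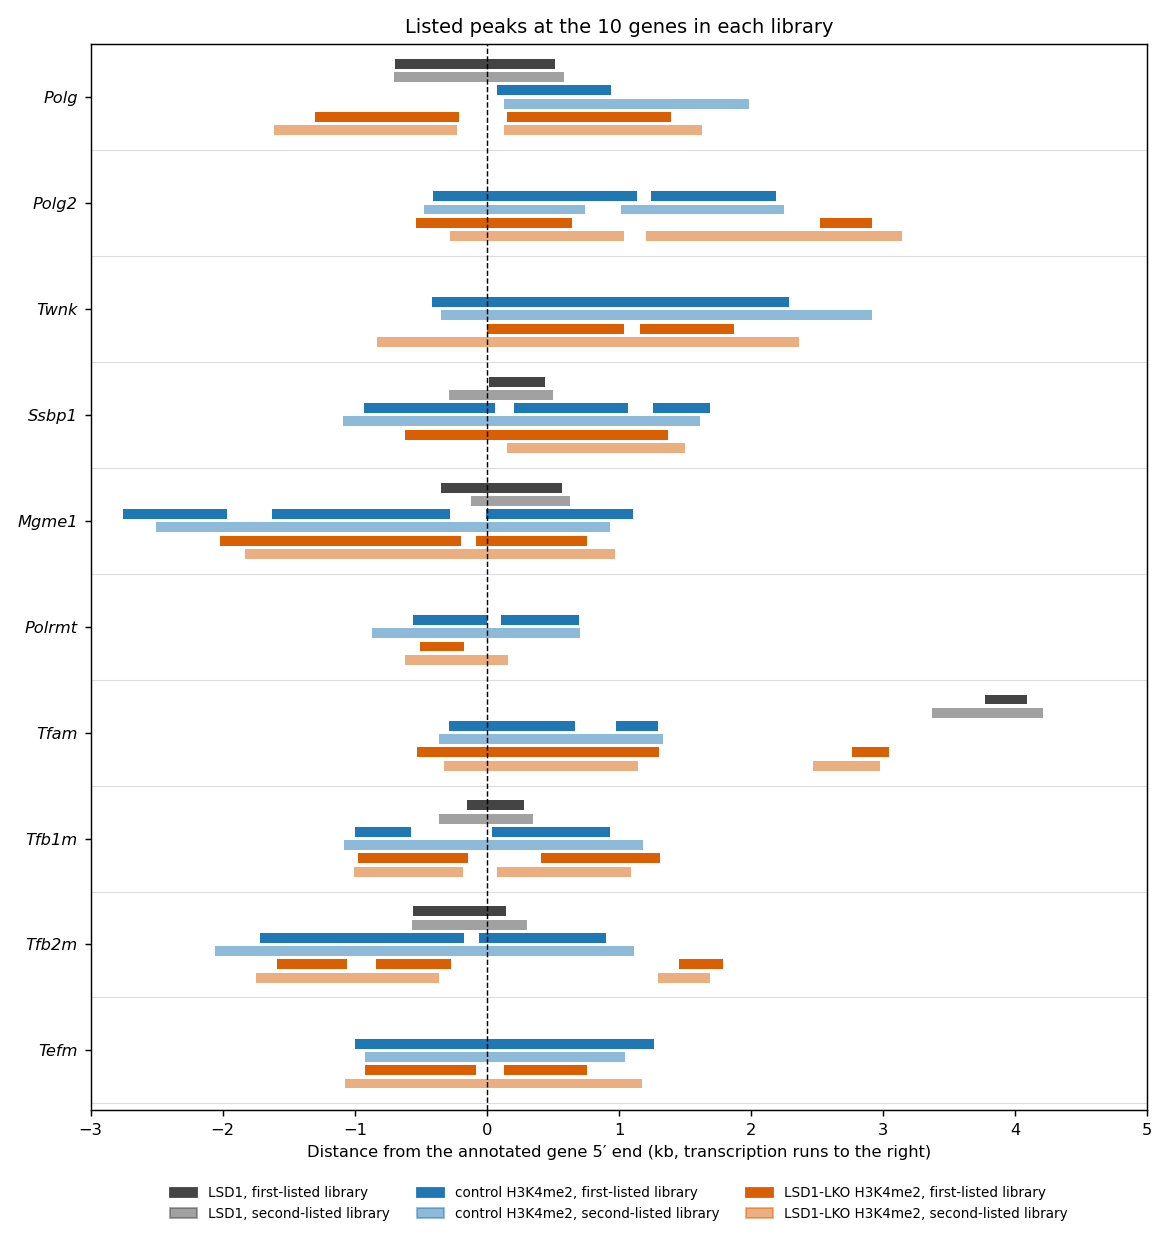
Listed peaks from 3 kb upstream to 5 kb downstream of the annotated 5′ end of each gene (x axis, kb, transcription to the right), with 1 row per library, dark bars for the first-listed and pale bars for the second-listed library of the LSD1 (gray), control H3K4me2 (blue) and LSD1-LKO H3K4me2 (orange) lists. LSD1 bars lie at or next to the 5′ end at 5 genes and well inside Tfam, and the blue bars over the 5′ end of Tfb2m have no orange counterpart.

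The strength of H3K4me2 was given by the fold enrichment of the highest-ranking promoter peak of each gene, which was not compared between lists because each list was scored on its own. In the control list, Twnk had the highest percentile, 98.2, with 6.11-fold enrichment in the first-listed library and 10.1-fold in the second. Ssbp1 (7.83-fold and 7.33-fold), Tfb2m (6.71-fold and 9.0-fold) and Tefm (7.09-fold and 8.21-fold) followed, and Tfb1m was lowest at percentile 64.4 (3.73-fold and 5.56-fold). Over the 10 genes the median enrichment was 6.41-fold and 7.085-fold in the 2 control libraries, beside 4.87-fold and 6.61-fold over the 13082 genes with such a peak. The libraries of 1 group differed widely at single genes, as at Polg, where the control values were 3.08-fold and 8.41-fold.

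In the LSD1-LKO list the top peak belonged to Polg, at percentile 96.5 with 6.65-fold and 7.36-fold enrichment. Mgme1 (94.9) and Twnk (94.3) were next. The RNA polymerase gene Polrmt was lowest, at percentile 28.9 with 2.65-fold and 3.86-fold enrichment, and Polg2 was next lowest at percentile 52.0. The median enrichment over the 10 genes was 4.19-fold and 6.22-fold in the LSD1-LKO libraries, beside 4.43-fold and 6.35-fold over the 13112 genes with such a peak. At a p-value of 1e-05 or below in both libraries, 8 of 10 genes kept a control peak and 8 of 10 an LSD1-LKO peak, against 48.0% and 45.2% of protein-coding genes. They were not the same 8. Polg2 and Polrmt had such a peak in the control list alone, a pattern of 8.18% of protein-coding genes, and Polg and Tfb1m in the LSD1-LKO list alone, a pattern of 5.42%. In the other list each missed the threshold in the first-listed library only. There the highest-ranking peak had a MACS −log10 p of 4.5 at Polg2 and 3.06 at Polrmt (LSD1-LKO), and 4.87 at Polg and 4.96 at Tfb1m (control). The split thus rests on a cutoff in 1 library and is not a comparison of strength between the lists.

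**Figure D2:**
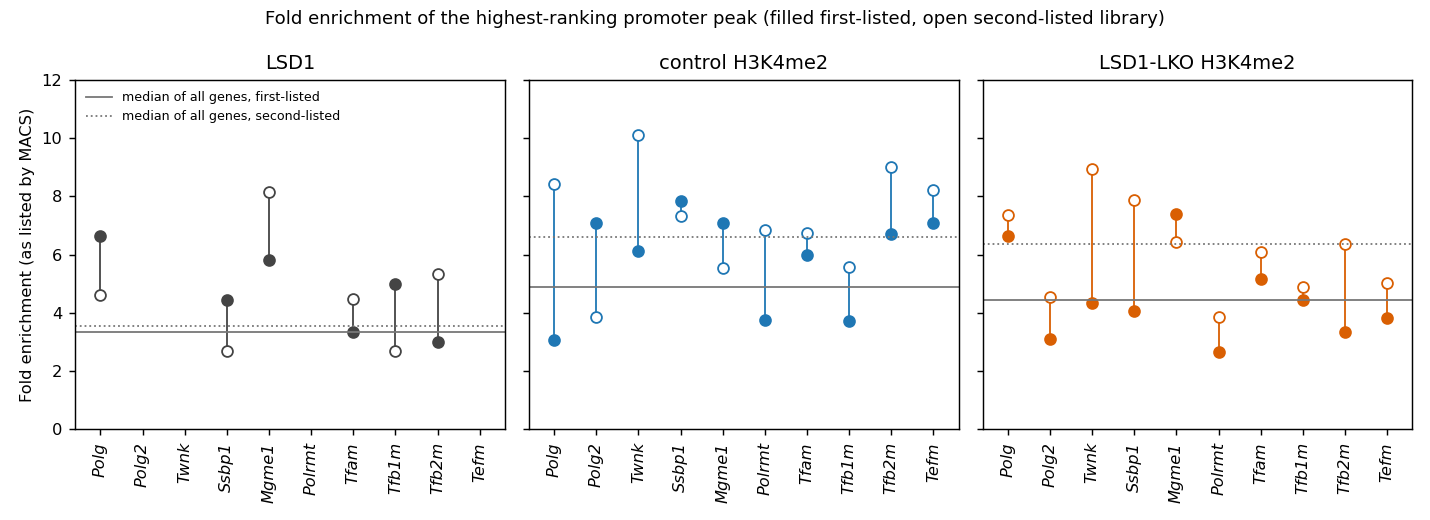
Fold enrichment of the highest-ranking promoter peak of each gene (y axis, as listed by MACS) in the LSD1, control H3K4me2 and LSD1-LKO H3K4me2 lists, with filled points for the first-listed and open points for the second-listed library. Solid and dotted lines are the medians of all genes with a promoter peak in those libraries, and in the LSD1-LKO panel both points of Polrmt lie below both lines.

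Whether H3K4me2 differed between LSD1-LKO and control liver was asked through the promoter length under listed peaks, taken from the intervals of each library. A region is listed only if both libraries of its group called it. The 2 values of a group are therefore not independent, and part of their agreement comes from how the lists were made. With 2 libraries a group, the exact two-sided permutation test cannot give a p-value below 0.333, so no difference could pass 0.05 and each is given beside the share of all genes with the same pattern. Both LSD1-LKO libraries lay below both control libraries at 3 of 10 genes, against 17.3% of the 13777 marked genes, and above them at 2 of 10, against 15.1%. The remaining 5 genes had groups that overlapped. A single gene makes up 10% of this set, so neither count is read as a departure from the background.

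Tfb2m had the largest difference of the 10. Its promoter windows, 4407 bp in all, had 1783 and 2113 bp under H3K4me2 peaks in the control libraries and 572 and 720 bp in the LSD1-LKO libraries. The means were 1948 ± 233.3 bp and 646 ± 104.7 bp (SD, n = 2; exact permutation p = 0.333), and the groups did not overlap. In the first-listed control library, an H3K4me2 peak at chr1:179545368-179546325 covered the Tfb2m 5′ end, and another lay over Cnst, chr1:179546443-179547986. The second-listed control library had a single peak across both, chr1:179545155-179548326. In LSD1-LKO, only the Cnst side kept a promoter peak, chr1:179546538-179547109, and another peak began 1061 bp upstream, just beyond the window.

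Polrmt had 1148 and 1577 bp covered in control and 337 and 783 bp in LSD1-LKO, again without overlap (exact permutation p = 0.333). In the first-listed libraries, control had peaks on either side of the start and LSD1-LKO a single 337-bp peak upstream. In the second-listed libraries, a single peak covered the start in control (chr10:79745878-79747454) and in LSD1-LKO (chr10:79746419-79747201). Ssbp1 was the third gene whose groups separated, with 1854 and 2175 bp in control and 1798 and 1019 bp in LSD1-LKO. There the nearest pair of libraries differed by 56 bp, and most of the difference came from the second-listed LSD1-LKO library.

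Polg and Tfam went the other way. Polg had 861 and 1161 bp covered in control and 1931 and 1938 bp in LSD1-LKO, a mean difference of 923.5 bp (exact permutation p = 0.333, n = 2 per group). Relative to the GENCODE 5′ end, control H3K4me2 was listed only inside the gene, chr7:79465425-79466285. LSD1-LKO H3K4me2 was listed there and also upstream, chr7:79466571-79467665, with 3.69-fold and 6.09-fold enrichment. The RefSeq Polg gene reaches chr7:79467911 and holds both regions. The 2 LSD1-LKO peaks of Polg left a gap of 362 bp over the 5′ end. Tfam had 1274 and 1697 bp in control and 2109 and 1975 bp in LSD1-LKO. Its LSD1-LKO list held an added 277-bp peak near the internal start, of low rank (percentile 8.5).

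At the other 5 genes the libraries of the groups interleaved. Polg2 had 1472 and 1271 bp in control and 1184 and 1318 bp in LSD1-LKO. Twnk shares its promoter with Mrpl43, a mitochondrial ribosomal protein gene whose start lies 116 bp away. Twnk had 2315 and 2241 bp in control and 1748 and 2729 bp in LSD1-LKO, so its LSD1-LKO libraries lay on either side of both controls. Mgme1 had 1839 and 1936 bp against 1646 and 1969 bp, and Tefm 2032 and 1952 bp against 1475 and 2033 bp. Tfb1m had 1313 and 2048 bp in control and 1476 and 1797 bp in LSD1-LKO. For these genes the exact permutation p was 0.667 at Polg2 and 1.0 at Twnk, Mgme1, Tfb1m and Tefm.

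**Figure D3:**
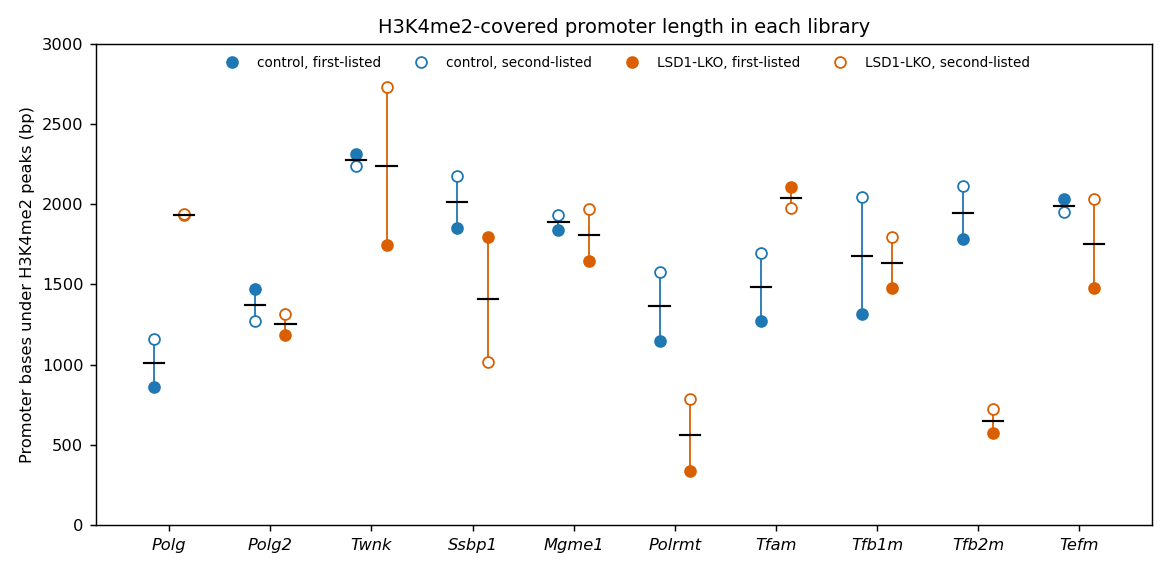
Promoter bases under H3K4me2 peaks (y axis, bp) at each gene in the 2 control libraries (blue) and the 2 LSD1-LKO libraries (orange), with filled points for the first-listed and open points for the second-listed library, a black bar for the mean and a line joining the libraries of a group. The orange points lie below the blue ones at Tfb2m, Polrmt and Ssbp1 and above them at Polg and Tfam.

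Taken from the first-listed libraries, covered length was shorter in LSD1-LKO at 7 of 10 genes, against 59.8% of the marked genes, with a median change of -240.5 bp over the 10 and -114 bp over all marked genes. From the second-listed libraries it was shorter at 4 of 10, against 42.4%, with medians of 40 bp and 25 bp. The median over the 10 genes thus turned with the library, and so did the median over all marked genes. Of the 10 genes, Tfb2m, Polrmt, Polg and Tfam kept the sign of their change under all 11 other settings that gave a value for them. These settings reuse the same peak lists, and that with the first-listed library alone repeats the main setting. How many of all marked genes keep their sign was not counted, so the kept signs are not read as support for these genes.

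**Figure D4:**
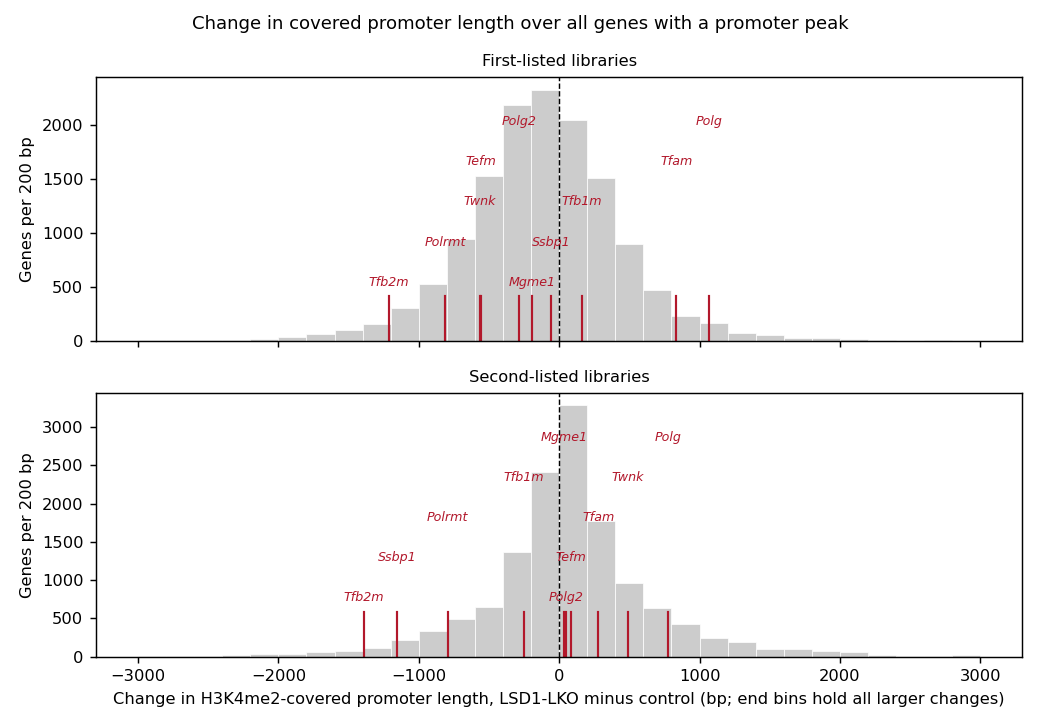
Change in H3K4me2-covered promoter length from control to LSD1-LKO (x axis, bp, in bins of 200 bp) for the 13777 protein-coding genes with a promoter peak in either list (gray bars, number of genes), from the first-listed libraries above and the second-listed libraries below. Red ticks and names give the 10 genes, and Tfb2m is the lowest of the 10 in both panels.

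At the LSD1 peaks themselves, the share of peak bases under H3K4me2 was read in each library. Of the 6 genes with an LSD1 promoter peak, 5 had control H3K4me2 overlapping it, all but Tfam, against 91.4% of genes with an LSD1 promoter peak. Within the Tfb2m peak, 83.4% and 100% of bases lay under control H3K4me2 and 40.7% and 27.6% under LSD1-LKO H3K4me2. At Tfb1m the control libraries gave 55.9% and 100%, and those of LSD1-LKO 3.2% and 48.2%. Polg had the opposite order, with 36.2% and 31.6% for the control libraries against 70.1% and 70.7% for LSD1-LKO. At Ssbp1 and Mgme1 the libraries of the groups interleaved, and the Tfam peak had none of its bases under H3K4me2 in any of the 4 libraries. Over all 5447 LSD1 peaks at promoters the control libraries had median shares of 94.0% and 100%, and the LSD1-LKO libraries of 78.9% and 100%, so the first- and second-listed libraries differed within a group too. How many of the 5447 peaks have groups that separate as at Tfb2m, Tfb1m and Polg was not counted. The separation at those genes therefore has no background beside it.

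**Figure D5:**
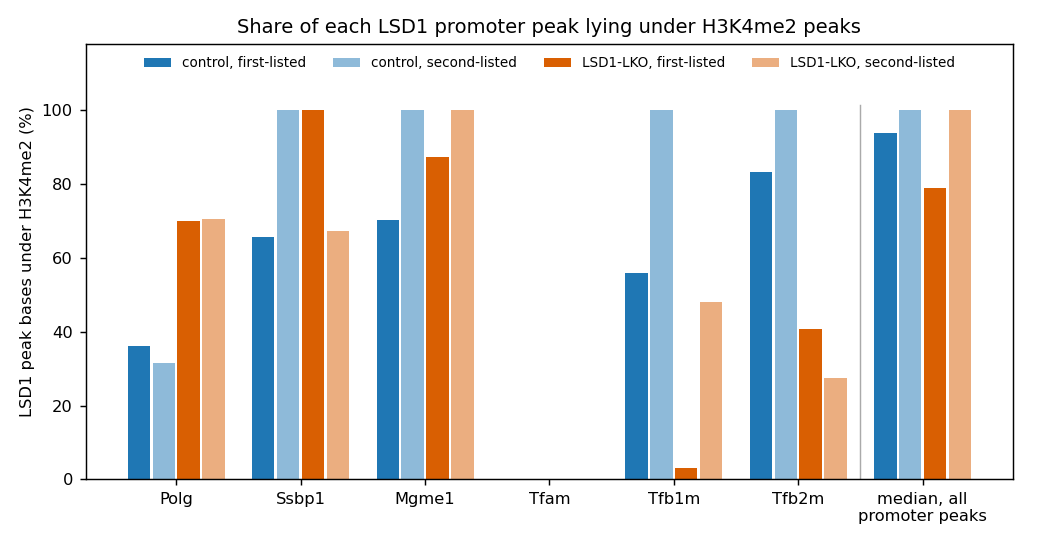
Share of the bases of each LSD1 promoter peak that lie under H3K4me2 peaks (y axis, percent) in the 2 control libraries (blue) and the 2 LSD1-LKO libraries (orange), dark for the first-listed and pale for the second-listed library, with the median of all 5447 LSD1 promoter peaks at the right. LSD1-LKO bars are shorter than both control bars at Tfb1m and Tfb2m and taller at Polg, and Tfam is at 0 in all 4.

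The annotated 5′ end of 4 genes, Polg, Mgme1, Tfb1m and Tfb2m, lay in an LSD1 peak, against 13.6% of protein-coding genes. In the first-listed control library 2 of these 4 ends, those of Polg and Tfb1m, were outside H3K4me2 peaks, as were 32.4% of ends that lay in an LSD1 peak. In Tfb1m the end fell in a 613-bp gap between flanking H3K4me2 peaks in control and a 546-bp gap in LSD1-LKO. The second-listed control library had no such gap at Tfb1m, where one peak covered the whole window. The Polg end was uncovered in all 4 H3K4me2 libraries.

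Across the 10 genes, 7 and 9 of the 5′ ends were under H3K4me2 in the 2 control libraries and 4 and 6 in the 2 LSD1-LKO libraries. Over all protein-coding genes the control libraries covered 37.7% and 47.1% of ends, and the LSD1-LKO libraries 32.9% and 46.9%. Tfb2m was the one gene of the 10 whose end was covered in both control libraries and neither LSD1-LKO library, a pattern of 2.64% of protein-coding genes and of 7.47% of the 7764 genes covered there in both control libraries, among which were 7 of the 10. The reverse pattern, shown by 2.01% of protein-coding genes, occurred at 0 of the 10.

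The study's primer sites fell in differing positions relative to these peaks. From ChIP-seq reads counted within LSD1 peaks, the study reported lower H3K4me2 signal in LSD1-LKO at promoters of downregulated mitochondrial genes. Covered length is a different measure, and the lists hold no reads to repeat that count. By ChIP-qPCR the study reported less H3K4me2 in LSD1-LKO liver at promoters of mitochondrial genes. It also reported more H3K9me2 at several such promoters, in an assay that included Polg2 and Tfb2m. The 95-bp Tfb2m amplicon, 634 to 728 bp upstream of the 5′ end, lay wholly under H3K4me2 in all 4 libraries. The 119-bp Polg amplicon lay wholly in the LSD1 peak and outside H3K4me2 peaks in all 4 libraries, in the stretch around the 5′ end that neither group covered. Its upstream primer matched within the tRNA gene n-TRtcg5. The 114-bp Polg2 amplicon, 560 to 673 bp upstream, was outside the listed peaks of all 6 libraries. The remaining 4 pairs were designed for transcription factors. The NRF1 pair at Tfb2m (chr1:179546121-179546299) lay under both LSD1 libraries and both control H3K4me2 libraries, and under no LSD1-LKO H3K4me2 peak. The GABP pair at Polg2 (chr11:106779645-106779809) lay wholly under H3K4me2 in all 4 libraries. The GABP pair at Polrmt (chr10:79746448-79746617, 170 bp) was wholly covered in the second-listed library of each group, and in the first-listed libraries had 63 bases covered in control and 0 in LSD1-LKO. The GABP pair at Polg (chr7:79466246-79466356) lay wholly under LSD1 in both libraries, with 40 bases under H3K4me2 in the first-listed control library and 0 in the other 3.

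Letters known from the motifs of GABP and NRF1, transcription factors of mitochondrial genes, were sought on both strands in RefSeq promoters (GRCm38.p6, 250 bp before to 50 bp after each start). All 10 genes were matched, with 11 promoters because Twnk has 2. The GABP letters CCGGAAGT were found at Polg, Tfam, Tefm and Twnk, and in 3.89% of all 32851 promoters. The NRF1 letters CGCATGCG, which read the same on both strands, were found at Tfb2m alone of the 10 and in 1.87% of promoters. The letters CAAAGGTCA of ERR were in none of the 11 and in 0.478% of all. No match overlapped another. The NRF1 letters of Tfb2m (chr1:179546257-179546264) lay under LSD1 and control H3K4me2 in every library and under LSD1-LKO H3K4me2 in neither. The GABP letters of Polg lay under LSD1 alone, and those of Tfam and Twnk under H3K4me2 in all 4 libraries without LSD1. Those of Tefm lay under H3K4me2 in both control libraries and in the second-listed LSD1-LKO library.

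The promoters were rich in CpG in most cases. Mgme1 had 46 CpG dinucleotides in its 300-bp window, the most of the 11 promoters, and Twnk had 7 at its first start and 32 at its second, where the median of all promoters was 7 and the upper quartile 20. Polg2, Tfb1m and Tefm, with 16, 16 and 15, were above the median and below that quartile.

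Away from promoters, LSD1 peaks were listed in the gene body or within 10 kb at 2 of 10 genes, against 28.5% of protein-coding genes. Tfb2m had 2, one intronic (chr1:179538883-179539375, percentile 9.6) and the other upstream (chr1:179552411-179552921, percentile 50.1). Neither overlapped H3K4me2 in any library. Twnk had 1 downstream (chr19:45017533-45017815, percentile 46.4), which lay 482 bp from a start of Lzts2 and wholly under H3K4me2 in all 4 libraries. None of these 3 peaks kept a q-value at or below 0.05 in both libraries. H3K4me2 peaks outside promoters numbered 12 in control and 16 in LSD1-LKO over the 10 genes. They were concentrated at a few genes and many lay nearest the starts of neighbors, Ddx5 and Cep95 at Polg2, Lzts2 at Twnk, Snx5 at Mgme1, Fgf22 at Polrmt, and Smyd3 and Cnst at Tfb2m. Tfb2m had 1 such peak in control and 6 in LSD1-LKO, whereas Mgme1 had 3 and 0. These are first-listed peaks, and some share a second-listed partner with a promoter peak. Such were chr1:179547328-179547855 at Tfb2m in LSD1-LKO and chr2:144267906-144268698 at Mgme1 in control. Others at Tfb2m in LSD1-LKO had low percentiles of 4.1, 18.6 and 11.6. H3K4me2 peaks outside promoters were not counted over all protein-coding genes, so the counts of 12 and 16 have no background. In addition, the whole LSD1-LKO list was larger, with 50675 peaks against 43891 in control. The counts are therefore not read as a gain or loss of H3K4me2 away from promoters.

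A wider list of 32 genes for mitochondrial DNA upkeep and RNA handling, drawn up apart from the 10, was read the same way. LSD1 promoter peaks were listed at 14 of the 32 (43.8%), beside the 24.6% of all protein-coding genes and the 38.6% of those with an H3K4me2 promoter peak, and 31 of the 32 were among the latter. The highest-ranking belonged to Mterf3, a transcription termination factor family member (percentile 98.8, 7.12-fold and 5.59-fold), Dguok, a deoxyguanosine kinase (80.4), and Lonp1, a matrix protease (79.9). H3K4me2 promoter peaks were listed at 31 of the 32 in control and 29 in LSD1-LKO, where the shares of all protein-coding genes were 59.6% and 59.8%. Lig3, a DNA ligase, and Hsd17b10, a subunit of mitochondrial RNase P, were marked in the control list alone. Slc25a4, the ADP/ATP carrier, had no promoter peak in either list. Covered length in the first-listed libraries was shorter in LSD1-LKO at 17 and longer at 14 of the 31 marked genes, where 59.8% of all marked genes were shorter, with a median change of -72 bp beside -114 bp. Both LSD1-LKO libraries lay below both controls at 5 of the 31 and above at 3, where the shares of all marked genes were 17.3% and 15.1%.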

How the data were processed

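ChIP-seq peak lists from 12 liver samples, 6 ChIP and 6 control libraries, were analyzed. The authors mapped reads to mm10 with Bowtie2, called narrow peaks in each library with MACS2 and joined the libraries of a group with bedtools 2.25.0, per the labels and the methods. Control libraries are named input in the labels and IgG in the methods. For each peak the authors deposited the MACS fold enrichment (a ratio) with its −log10 p-value and −log10 q-value. Some listed peaks had p-values up to 0.05, above the threshold of 0.01 in the methods. Peak names of the first-listed H3K4me2 libraries contain the word picard, a read-processing tool, and those of the second-listed do not, and the part of this difference in the widths was not tested. Another 12 columns of per-library values (scores and summit offsets) were not used.

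Positions are those of the first-listed library, and covered lengths were also taken from the second-listed. An overlap of 1 bp counted. Ranks are percentiles within a list by the mean −log10 p of the 2 libraries. Genes and starts are from GENCODE mouse release 21, with sequences and promoters from RefSeq GRCm38.p6. Every chromosome of the lists was present in this reference and long enough. Covered lengths were compared by the two-sided exact permutation test over libraries (scipy 1.17.1, Python 3.11.15), and the overlap code was tested on simulated intervals. Animal labels in the peak names differ between libraries of a list. The named genes are the 10 members, genes whose starts share their promoters or lie nearest their other peaks, and, of the 32 further genes, the 3 with the highest-ranking LSD1 promoter peak and those with H3K4me2 in 1 list only. Slc25a4 was named after its values were seen. The genes, lists and settings were chosen with earlier results of these data known. H3K9me2 and RNA data were not analyzed here.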

Additional observations from a re-analysis of the deposited data

How the results depend on the processing

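The 12 alternatives changed promoter width, the choice of TSS, the peak threshold, the overlap rule or the library whose intervals were used. The alternative with the first-listed library alone repeats the main setting, so its values could not differ. The median change in covered promoter length over the 10 genes, -240.5 bp, became 40 bp with the second-listed library alone, 43.5 bp with 500-bp promoters and -543 bp with 2-kb promoters. With single libraries it ranged from -240.5 to 40 bp, and the number of genes with a shorter length from 4 to 7. The 6 genes with an LSD1 promoter peak became 2 at p of 1e-05 or below and 2 at q of 0.05 or below, and the 5 whose peak overlapped control H3K4me2 became 1 and 2. The 2 genes with an LSD1 peak outside promoters became 1 at p of 0.01 or below, 0 at 1e-05 and 0 at q of 0.05. These thresholds keep fewer peaks, and the cause of the other shifts was not tested. The other 71 values stayed within 1.5 times or 1 SD between libraries. For single genes, 22 of 110 changes moved by more than that SD. No paired analysis was possible because the columns of the lists carry no replicate numbers. The settings with a replicate block were therefore not run. Depth is unknown, so the absence of a listed peak cannot be set against it.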
